A study of Mus musculus with 4 samples.

Results

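The 10 genes described here encode the core transcription factors of red cell development and their cofactors: the DNA-binding factors Gata1, Klf1, Tal1, Nfe2, Gfi1b and Zbtb7a, and the cofactors Zfpm1, Lmo2, Ldb1 and Cbfa2t3. They were chosen by name, as the Gata1 and Klf1 network with its cofactors, and all 10 were found among the 17393 genes of the deposited expression table. RNA was sequenced from DS19 mouse erythroleukemia cells, a transformed line of red cell precursors, as 2 libraries of wild-type cells and 2 libraries of cells with the Wdr26-/- genotype. Wdr26 encodes a subunit of the CTLH ubiquitin ligase. The labels describe a culture in which 1.5% dimethyl sulfoxide drives red cell-like differentiation, without saying whether the sequenced cells of either genotype had received it. They also do not say how the knockout was made, whether it is a single clone, or whether the 2 libraries of each genotype are separate cultures. The p-values therefore reflect only sample-to-sample spread, possibly technical.

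Gata1 is a zinc finger factor that binds GATA sequences and activates most genes of the red cell program, and it needs the cofactor Zfpm1 (FOG1) at many of them. A larger complex joins Gata1 to Tal1, a basic helix-loop-helix factor, through the bridging protein Lmo2 and the self-associating protein Ldb1, which brings distant enhancers to promoters. Cbfa2t3 (ETO2) attaches to that complex and represses its targets until late maturation, and Gfi1b represses through histone demethylase and deacetylase partners. Klf1 binds CACC boxes, among others that of the adult beta globin promoter, Nfe2 pairs with small Maf proteins at globin control regions, and Zbtb7a (LRF) represses fetal-type globin genes.

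Because several of these factors are known to act on each other's promoters, the stretch before each gene's start site was searched for the GATA sequences AGATAA and TGATAA on both strands. RefSeq promoter windows (GRCm38.p6, 250 bases before to 50 bases after a start site) were at hand for 8 of the 10 genes, as 12 windows. The genes without a window were Nfe2 and Lmo2. A match was found in 6 of the 12 windows, belonging to 6 of the 8 genes (Cbfa2t3, Gfi1b, Klf1, Ldb1, Tal1 and Zbtb7a), and no match overlapped another. Of all 32851 windows 18.6% held such a match, and of the 8293 tested genes with a window 11.7% did. The CACC box form CCNCNCCC was in 10 of the 12 windows, against 49.5% of all windows, and in 7 of the 8 genes, against 73.2% of tested genes. The helix-loop-helix site CAGATG was in 3 of 12, against 17.2% (3 of the 8 genes, against 12.8%), and the Nfe2 site core TGAGTCA or TGACTCA was in 0 of 12, against 5.20% (0 of the 8 genes, against 4.08%). A match is a description of letters, not a measured binding site.

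The exon-free stretches before 4 start sites are shown because they hold GATA matches in genes that behaved differently: Klf1 was lower in both knockout libraries, Tal1 and Ldb1 were higher in both, and Zbtb7a overlapped between genotypes. Capitals mark the match, and a match on the opposite strand reads as TTATCT or TTATCA. In Klf1 it begins 80 bases before the start site of the window shown, and in Tal1 205 bases. In Ldb1 the matches begin 240 and 200 bases before that site, and in Zbtb7a 116 and 39 bases. Ldb1 has 3 windows and Tal1 has 2, and those not shown held no match. The shown windows of Ldb1 and Zbtb7a lie inside the RefSeq span of the gene, so their start sites are internal ones.
Klf1, chr8:84901732-84901927, plus strand: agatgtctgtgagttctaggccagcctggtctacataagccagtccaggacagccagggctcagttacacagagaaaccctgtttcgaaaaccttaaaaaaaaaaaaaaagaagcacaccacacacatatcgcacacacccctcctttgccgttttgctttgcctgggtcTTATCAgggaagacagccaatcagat
Tal1, chr4:115056176-115056425, plus strand: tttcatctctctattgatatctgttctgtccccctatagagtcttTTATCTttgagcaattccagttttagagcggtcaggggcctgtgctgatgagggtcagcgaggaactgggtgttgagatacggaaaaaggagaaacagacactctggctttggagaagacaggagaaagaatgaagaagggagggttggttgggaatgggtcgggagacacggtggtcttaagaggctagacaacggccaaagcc
Ldb1, chr19:46037071-46037320, minus strand: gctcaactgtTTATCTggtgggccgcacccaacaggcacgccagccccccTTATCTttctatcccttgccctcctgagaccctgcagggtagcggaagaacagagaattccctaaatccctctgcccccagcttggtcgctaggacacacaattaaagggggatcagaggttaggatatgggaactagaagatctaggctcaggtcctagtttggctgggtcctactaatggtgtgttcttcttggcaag
Zbtb7a, chr10:81136021-81136270, plus strand: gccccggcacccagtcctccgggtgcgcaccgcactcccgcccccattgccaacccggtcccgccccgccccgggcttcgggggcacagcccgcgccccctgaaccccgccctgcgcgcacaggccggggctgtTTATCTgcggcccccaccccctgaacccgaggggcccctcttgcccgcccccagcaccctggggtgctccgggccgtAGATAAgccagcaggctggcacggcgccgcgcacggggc

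The knockout was checked first on its target. Wdr26 stood at 55.39 and 52.41 FPKM (fragments scaled to transcript length and depth) in the wild-type pair against 9 and 7.84 FPKM in the knockout pair, a residual of 15.6%. The cells carried red cell markers in every library: all 8 listed ones, among them alpha and beta globin, Alas2 and the erythropoietin receptor gene Epor, were above 1 FPKM. Summed FPKM of the 9 megakaryocyte markers was 254 and 308 in wild type against 282 and 291 in knockout, most of it from Itga2b and Pf4. Pf4 overlapped between genotypes, at 22.8 and 58.22 FPKM in wild type against 21.35 and 37.86 FPKM in knockout. Its log2 difference was −0.35, and it ran from −1.01 to 0.31 when single libraries were left out. Of the 5 tested megakaryocyte markers, 3 were higher in both knockout libraries (Gp1ba, Gp9 and Itga2b) and 1 was lower (Vwf). With each library centred on its median, 1 was higher and 1 lower. Markers of granulocytes and monocytes summed to 4.44 and 4.31 FPKM in wild type against 8.09 and 13.1 FPKM in knockout, from Prtn3, while Elane was listed at 0. Lymphocyte markers summed to 0.75 and 0.72 FPKM in wild type against 2.45 and 1.41 FPKM in knockout, through Ptprcap (0.3 and 0.17 against 1.97 and 1.23 FPKM), which did not pass the test (limma adjusted p = 0.184, but 0.00322 without knockout library 2). The part of Prtn3 and Ptprcap in the results on the members was not tested. Mast cell and stromal markers summed to at most 1.02 FPKM in any library, and genes such as Cpa3, Cd79b, Cd3e, Cdh5 and Epcam were listed at 0. Small steps in the low values corresponded to about 26000000 to 27000000 fragments per library, an approximate figure.

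All 10 genes were expressed, over a wide range of levels. Averaged over the 4 libraries the order was Gata1 (482 FPKM), Zfpm1 (374), Klf1 (256), Gfi1b (235), Tal1 (211), Nfe2 (178), Ldb1 (165), Cbfa2t3 (57.5), Zbtb7a (27.6) and Lmo2 (13.8). Gata1 ranked 134 among the 17393 genes, and 7 of the members lay above at least 96.7% of the 10670 genes tested, whereas Lmo2 lay above 55.2%. The ranges of neighbours overlapped from Klf1 through Gfi1b, Tal1 and Nfe2 to Ldb1, so these neighbours are not separated in every library. Klf1, Gfi1b and Tal1 nevertheless lay above Ldb1 in all 4. Gata1, Zfpm1, Cbfa2t3, Zbtb7a and Lmo2 were each apart from their neighbours in every library. Estimated fragments per library were on the order of 580 for Lmo2, 9600 for Ldb1 and 22000 for Tal1. These estimates also grow with transcript length, so they are not a comparison of levels. Genes were tested when they reached 1 FPKM in at least 2 libraries, which all 10 did.

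**Figure D1:**
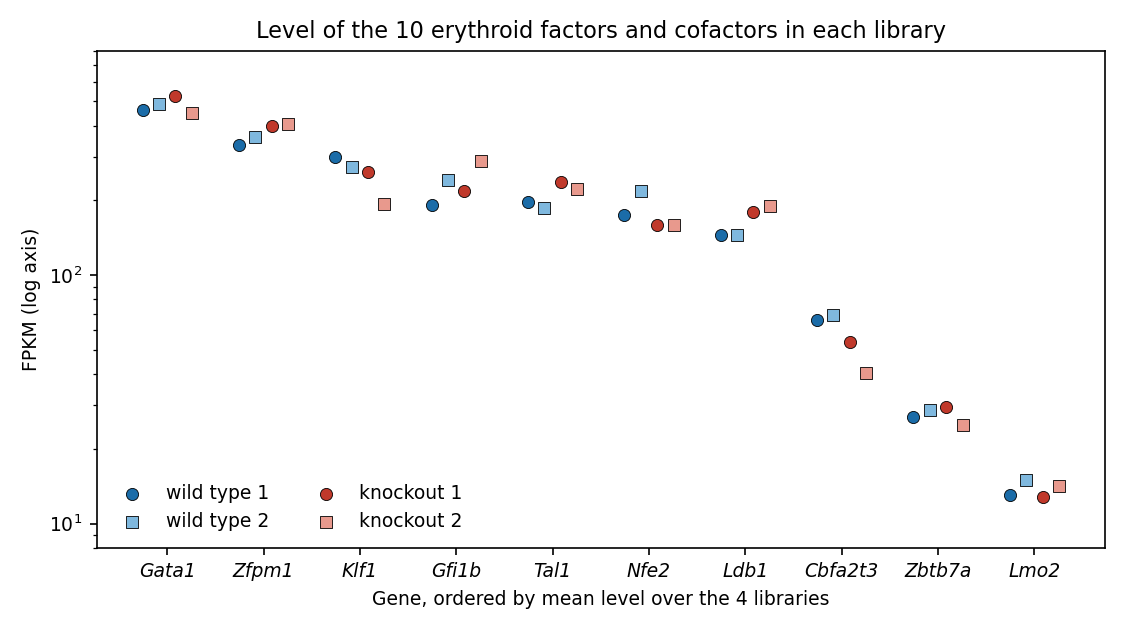
FPKM of each gene (log axis) in the 2 wild-type libraries (blue) and the 2 knockout libraries (red), with circles for library 1 and squares for library 2. Gata1 lies between 451.4 and 525.09 FPKM with both genotypes mixed, and Cbfa2t3 shows both knockout points (53.87 and 40.56) below both wild-type points.

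None of the 10 genes passed the test between genotypes (limma on log2(FPKM + 1), Benjamini-Hochberg adjusted over 10670 genes, threshold 0.05), where 10 genes in all, 0.0937%, did. In simulated data this test recovered 1.79% of 1.5-fold changes, so a gene that did not pass can still differ. At an unadjusted p under 0.05 there were 2 members, Cbfa2t3 lower and Ldb1 higher, against 11.4% of all genes tested. Counting by overlap, 6 members stood apart between genotypes, against 40.7% of all genes. Ldb1, Tal1 and Zfpm1 were higher in both knockout libraries, where 29.9% of all genes were. Cbfa2t3, Klf1 and Nfe2 were lower in both, where 10.8% were. This balance depends on scaling, because the medians of the knockout libraries averaged 0.077 higher than those of wild type on the log2 scale. With each library centred on its median, Zfpm1 overlapped and 5 members stood apart (2 higher and 3 lower), against 40.1% of all genes (19.9% higher and 20.1% lower). The median difference of the 10 members was −0.001 and that of all genes tested 0.067. In RNA from a whole culture, fewer cells of a type and less RNA per cell cannot be told apart.

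**Figure D2:**
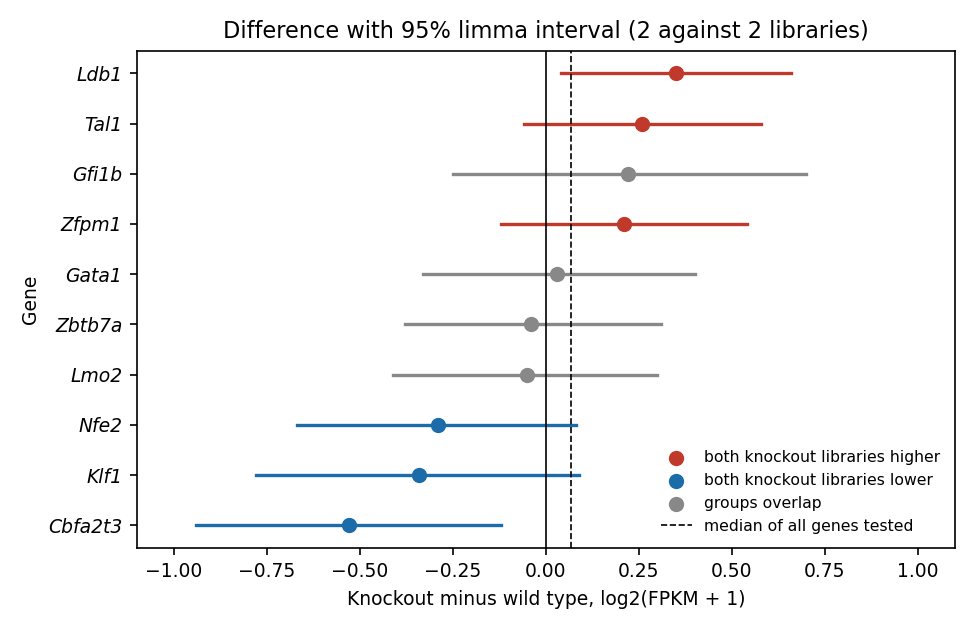
Difference between knockout and wild type on the log2(FPKM + 1) scale for each gene, with its 95% interval from limma over 2 against 2 libraries. The intervals of Cbfa2t3 (−0.94 to −0.12) and Ldb1 (0.04 to 0.66) do not cross 0 before adjustment, and the dashed line marks the median of all genes tested.

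Among the activators, Gata1 itself (gene ID 14460, chromosome X, 7959260 to 7976663, mm10) stood at 462.49 and 489.26 FPKM in wild type against 525.09 and 451.4 FPKM in knockout. The knockout libraries lay on either side of the wild-type pair. The difference was 0.03 on the log2 scale (SE 0.15), with a 95% interval of 0.795-fold to 1.32-fold (limma adjusted p = 0.966), and its sign turned to −0.04 with median-centred values.

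Klf1 (gene ID 16596, chromosome 8, 84901982 to 84905291) stood at 298.5 and 272.09 FPKM in wild type against 259.57 and 194.23 FPKM in knockout. Both knockout libraries were lower, at a mean of 79.5% of wild type, and knockout library 1 lay close under wild-type library 2. The log2 difference was −0.34 (SE 0.179, limma adjusted p = 0.562), with an interval of 0.583-fold to 1.07-fold. Knockout library 2 carried most of it, since the difference was −0.13 without that library and −0.55 without knockout library 1.

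Tal1 (gene ID 21349, chromosome 4, 115056426 to 115071755) was at 196.94 and 187.15 FPKM in wild type against 237.48 and 222.91 FPKM in knockout, so both knockout libraries were higher. Its mean was 1.20-fold that of wild type, with a log2 difference of 0.26 (SE 0.131, limma adjusted p = 0.543). The row of Tal1 combines 2 RefSeq transcripts with 7 transcripts assembled from the reads, and does not tell them apart.

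Nfe2 (gene ID 18022, chromosome 15, 103248212 to 103258403) stood at 175.22 and 217.54 FPKM in wild type against 159.39 and 159.38 FPKM in knockout. The wild-type libraries differed from each other by more than the lower of them differed from knockout. Its log2 difference of −0.29 (SE 0.154, limma adjusted p = 0.567) depends on the wild-type libraries, being −0.14 with library 2 left out and −0.45 with library 1 left out.

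The DNA-binding repressors did not separate the genotypes. Gfi1b (gene ID 14582, chromosome 2, 28609450 to 28621982) was at 191.39 and 240.92 FPKM in wild type against 218.08 and 287.65 FPKM in knockout. In both genotypes library 2 was higher than library 1, by 0.33 and 0.40 on the log2 scale, which is more than the genotype difference of 0.22 (SE 0.195, limma adjusted p = 0.765). With 1 library left out it was 0.02 (knockout 2), 0.06 (wild type 1), 0.39 (wild type 2) or 0.42 (knockout 1). Zbtb7a (gene ID 16969, chromosome 10, 81135225 to 81152222) stood at 27 and 28.79 FPKM in wild type against 29.43 and 25.07 FPKM in knockout. Its knockout values lay on either side of both wild-type values, and its interval ran from 0.768-fold to 1.24-fold (limma adjusted p = 0.961).

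Of the cofactors, Cbfa2t3 (gene ID 12398, chromosome 8, 122625136 to 122699332) differed most. It stood at 66.28 and 69.29 FPKM in wild type against 53.87 and 40.56 FPKM in knockout, so the knockout mean was 69.7% of the wild-type mean. The wild-type libraries were close together, and the knockout libraries were lower and further apart. The log2 difference was −0.53 (SE 0.169), with an interval of 0.522-fold to 0.923-fold (limma adjusted p = 0.337). Without knockout library 1 the difference was −0.73 and passed the test (limma adjusted p = 0.00619), with knockout library 2 as the only knockout sample, assumed to vary as the wild-type libraries do. Without knockout library 2 it was −0.33 (limma adjusted p = 0.534). Exons of Cbfa2t3 share 295 bases, 3.52% of its exon length, with Gm10612 on the opposite strand, for which no value was analysed here.

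Ldb1 (gene ID 16825, chromosome 19, 46031525 to 46048145) was at 144.69 and 144.95 FPKM in wild type against 180.27 and 190.01 FPKM in knockout, a mean 1.28-fold that of wild type. The gap between genotypes exceeded the spread within either pair. The log2 difference was 0.35 (SE 0.127, limma adjusted p = 0.387) and stayed between 0.27 and 0.39 under all alternatives run. Exons of Ldb1 share 177 bases, 3.84% of its exon length, with Pprc1 on the opposite strand. Pprc1 read 12.9 and 9.6 FPKM in wild type against 13.88 and 7.6 FPKM in knockout. The sources used here do not say whether counting used strand.

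Zfpm1 (gene ID 22761, chromosome 8, 122281856 to 122337862), the partner of Gata1, stood at 335.02 and 359.52 FPKM in wild type against 397.08 and 406.28 FPKM in knockout. Both knockout libraries were higher, at a mean 1.16-fold that of wild type (log2 difference 0.21, SE 0.135, limma adjusted p = 0.648). Lmo2 (gene ID 16909, chromosome 2, 103957903 to 103981878) was at 13.03 and 15.03 FPKM in wild type against 12.78 and 14.16 FPKM in knockout. Its groups overlapped, library 2 was the higher in both genotypes, and the interval ran from 0.755-fold to 1.23-fold (limma adjusted p = 0.938).

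Ratios between genes of the same library do not depend on how libraries are scaled, and they were taken for each member against Gata1, the most abundant. Klf1 was at 0.645 and 0.556 of the Gata1 level in wild type and at 0.494 and 0.430 in knockout, lower in both knockout libraries. Cbfa2t3 stood at 0.143 and 0.142 of the Gata1 level in wild type and at 0.103 and 0.0899 in knockout, and Nfe2 at 0.379 and 0.445 against 0.304 and 0.353. In the other direction, Ldb1 stood at 0.313 and 0.296 of Gata1 in wild type and 0.343 and 0.421 in knockout. Tal1 went from 0.426 and 0.383 to 0.452 and 0.494, and Zfpm1 from 0.724 and 0.735 to 0.756 and 0.900. The ratio of Zbtb7a was lower in both knockout libraries by a small amount (0.0584 and 0.0588 against 0.0560 and 0.0555), although its own FPKM overlapped. Those of Gfi1b and Lmo2 overlapped. Every ratio shares the Gata1 value, which stood at 525.09 and 451.4 FPKM in knockout. The share of all tested genes whose ratio to Gata1 stood apart was not computed, so these are descriptions only.

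The repressive cofactor Cbfa2t3 and the bridging cofactor Ldb1, which sit in the same complex, thus went in opposite directions. Their ratio, chosen after the values were seen, was 0.458 and 0.478 in wild type against 0.299 and 0.213 in knockout, a mean ratio 0.547 times that of wild type. The ratio of Cbfa2t3 to Tal1 was 0.337 and 0.370 in wild type against 0.227 and 0.182 in knockout. The ratio of Ldb1 to Tal1, both higher in knockout, overlapped at 0.735 and 0.775 against 0.759 and 0.852. These ratios are descriptions of 4 libraries, with no test.

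**Figure D3:**
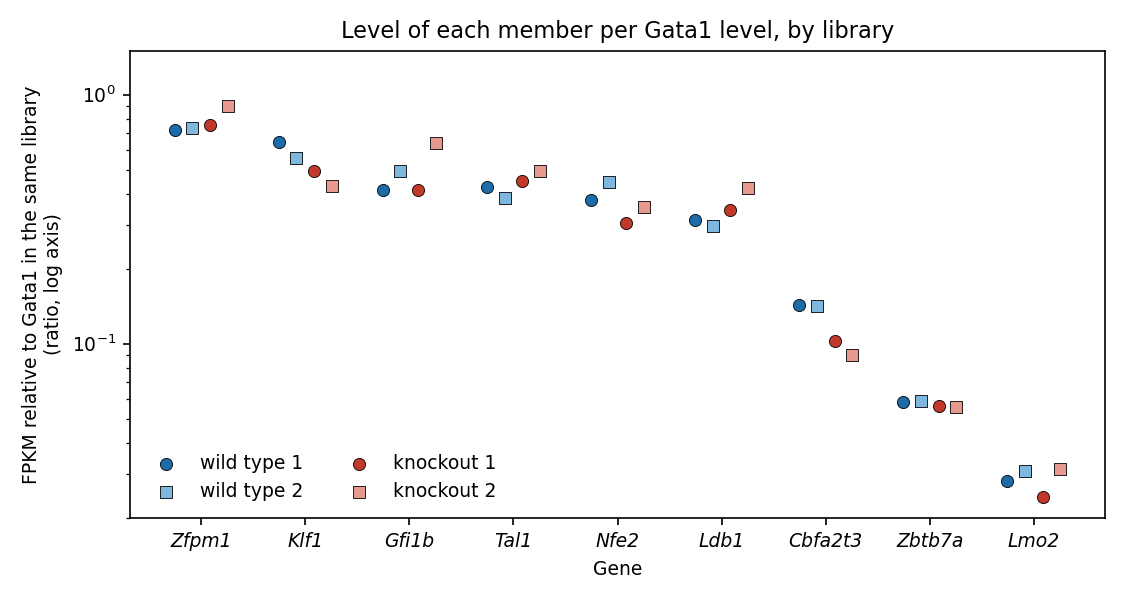
FPKM of each gene divided by that of Gata1 in the same library (log axis), with symbols as in the plot of levels. Both knockout points of Klf1, Nfe2, Cbfa2t3 and Zbtb7a lie below both wild-type points. Those of Zfpm1, Tal1 and Ldb1 lie above, and those of Gfi1b and Lmo2 overlap. The share of all tested genes with such ratios apart was not computed.

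As a group the members differed between genotypes by a median of 0.24 in absolute log2 value, against 0.15 for all genes tested, and none reached 2-fold. Their absolute difference between the wild-type libraries had a median of 0.10 and that between the knockout libraries 0.18, against 0.17 and 0.20 for all genes. Klf1 and Tal1 were lower in library 2 than in library 1 of both genotypes. Gfi1b, Lmo2, Zfpm1 and, only slightly in wild type, Ldb1 were higher in library 2 of both.

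Further proteins of the same complexes were examined as lists, and no gene of any list passed the test over all genes (limma). Where leaving out 1 library changed a call, the log2 differences without it are given, for the gene or as a range over genes. Such a fit has 1 library in that genotype and holds no spread for it. Of the 16 tested partners of the Gata1, Tal1 and Ldb1 complex, 6 were higher in both knockout libraries and 0 lower, with a median log2 difference of 0.068. The 37.5% of the list with groups apart is near the 40.7% of all genes. With median-centred values 4 were higher and 4 lower, against 19.9% and 20.1% of all genes. The Ldb1-binding protein gene Ssbp4 was at 63.63 and 65.05 FPKM in wild type against 80.01 and 72.59 FPKM in knockout. The E protein gene Tcf4, whose product can pair with Tal1, was at 4.26 and 5.6 FPKM against 6.6 and 8.93 FPKM, and passed without knockout library 1 (limma adjusted p = 0.021). Lyl1, a close relative of Tal1, overlapped at 70.39 and 76.52 FPKM against 75.58 and 53.19 FPKM.

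Of the 22 corepressor genes 10 were higher in both knockout libraries and 0 lower, with a median of 0.14 (8 higher and 1 lower with median-centred values). The 45.5% with groups apart is near the 40.7% of all genes, of which 29.9% were higher (19.9% with median-centred values). Mta1, a subunit of the NuRD deacetylase complex that Zfpm1 recruits, was at 168.56 and 169.08 FPKM in wild type against 254.66 and 277.71 FPKM in knockout. Its knockout mean was 1.58-fold that of wild type (log2 difference 0.65, SE 0.132, limma adjusted p = 0.183), and it passed without knockout library 1 (0.0184). Ctbp1, which encodes a corepressor that binds Zfpm1, overlapped at 159.87 and 138.01 FPKM against 162.47 and 133.53 FPKM.

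Among 6 tested partners and relatives of Nfe2, 4 were lower in both knockout libraries, as Nfe2 was (5 with median-centred values), where 10.8% of all genes were (20.1% with median-centred values). They were Mafk, Mafg and Maff, which encode small Maf partners, and Bach1, which encodes a heme-sensing competitor for the same sites. Mafk was at 24.79 and 26.56 FPKM in wild type against 23.68 and 23 FPKM in knockout, and Mafg at 17.35 and 17.72 FPKM and 15.58 and 15.71 FPKM. Bach1 stood at 16.12 and 15.47 FPKM against 12.78 and 14.62 FPKM, and Maff at 2.98 and 3.27 FPKM against 1.55 and 2.51 FPKM. The related factor gene Nfe2l1 was higher in both knockout libraries, at 24.06 and 21.17 FPKM against 27.36 and 27.58 FPKM, and Nfe2l2 overlapped at 31.61 and 28.8 FPKM against 29.64 and 30.51 FPKM.

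Factors that oppose Gata1 or mark earlier progenitors had a median log2 difference of 0.24 over 9 tested genes, with 5 higher in both knockout libraries and 0 lower (3 and 0 with median-centred values), where 29.9% of all genes were higher (19.9% with median-centred values). The 5 were Fli1, Gata2, Cebpa, Cebpb and Etv6. Fli1, a megakaryocyte and leukemia factor gene, was at 6.28 and 5.87 FPKM in wild type against 10.49 and 11.29 FPKM in knockout, 1.79-fold (log2 difference 0.75, SE 0.138, limma adjusted p = 0.158). Gata2, which Gata1 replaces during red cell development, was at 2.49 and 2.53 FPKM in wild type against 4.11 and 4.52 FPKM in knockout, 1.72-fold (limma adjusted p = 0.254). Spi1 (PU.1), which antagonizes Gata1, overlapped at 43.27 and 53.43 FPKM against 57.44 and 39.52 FPKM. Myc overlapped as well, at 56.08 and 31.45 FPKM against 66.78 and 25.68 FPKM, with the larger gap between library 1 and library 2 of each genotype. Of the genes too low to test, Myb, a progenitor factor, was lower in both knockout libraries (1.04 and 0.92 FPKM against 0.67 and 0.24 FPKM), and Kit, Erg and Hhex were listed at 0 in every library. Without knockout library 1 the log2 difference was 0.8 for Fli1 and −0.69 for Myc. Without knockout library 2 it was 0.7 for Fli1 and 0.66 for Myc, so Myc changed sign. The granulocyte gene Prtn3 was higher in both knockout libraries too, at 2.88 and 3.59 FPKM in wild type against 6.84 and 12.17 FPKM in knockout. Of the 9 granulocyte and monocyte markers with values, only Prtn3 reached 1 FPKM, so it does not stand for that list. Its log2 difference stayed positive with either knockout library left out (0.89 to 1.64). The part of Prtn3 in the result on progenitor factors was not tested.

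The paralogs of the members split, with 4 of 10 tested higher in both knockout libraries (Gata2, which is also on the progenitor list, Gata3, Klf11 and Klf16) and 2 lower (Klf3 and Sp1), against 29.9% and 10.8% of all genes. With median-centred values 2 were higher and 3 lower, against 19.9% and 20.1% of all genes. Klf3, a repressor that binds the same CACC boxes as Klf1, was at 33.05 and 31.14 FPKM in wild type against 28.11 and 25.87 FPKM in knockout. Klf13 overlapped at 17.72 and 21.92 FPKM against 16.91 and 23.47 FPKM. Of 17 other regulators of red cell genes 5 were lower in both knockout libraries (E2f2, Foxo3, Mxi1, Nr2c2 and Zfp36l2) and 2 higher (Nr2c1 and Stat5a). The 41.2% of them with groups apart is near the 40.7% of all genes. Foxo3, a forkhead factor of late red cell precursors, was at 191.34 and 184.77 FPKM in wild type against 124.28 and 133.41 FPKM in knockout, 68.5% of the wild-type mean (log2 difference −0.54, SE 0.129, limma adjusted p = 0.236). The RNA-binding factor gene Zfp36l2 was at 244.59 and 254.37 FPKM against 223.58 and 219.61 FPKM.

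Textbook genes that Gata1 and Klf1 activate had a median log2 difference of −0.29 over 29 tested genes. In 17 both knockout libraries were lower, and in 1 both were higher, against 10.8% lower and 29.9% higher among all genes. With median-centred values 19 were lower and 0 higher, against 20.1% and 19.9% of all genes. The whole-table results on red cell genes were known when this list was made, so it is not independent evidence of a direction. The band 3 anion exchanger gene Slc4a1 was at 436.06 and 284.78 FPKM in wild type against 48.58 and 6.7 FPKM in knockout (log2 difference −4.18, SE 0.797, limma adjusted p = 0.166). The transferrin receptor gene Tfrc was at 530.94 and 397.11 FPKM against 314.14 and 186.58 FPKM, and Ermap, a membrane protein gene, at 116.76 and 111.33 FPKM against 74.21 and 66.79 FPKM. Ahsp, the alpha globin chaperone, was at 1777.64 and 1195.5 FPKM against 1178.99 and 593.03 FPKM, and Epb42, of the band 3 complex, at 29.89 and 18.36 FPKM against 17.72 and 7.13 FPKM. Without knockout library 1 the log2 differences of these 5 genes ran from −5.52 (Slc4a1) to −0.76 (Ermap). Without knockout library 2 they ran from −2.83 (Slc4a1) to −0.31 (Ahsp). In each of these 5 genes knockout library 2 was the lowest of the 4 libraries. It was also the lowest for the members Klf1, Cbfa2t3, Gata1 and Zbtb7a. For Nfe2 it was lowest only narrowly (159.38 against 159.39 FPKM in knockout library 1). The share of all genes with knockout library 2 lowest was not computed. Hba-a1 and Hbb-b1, the main alpha and beta globin genes, overlapped.

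**Figure D4:**
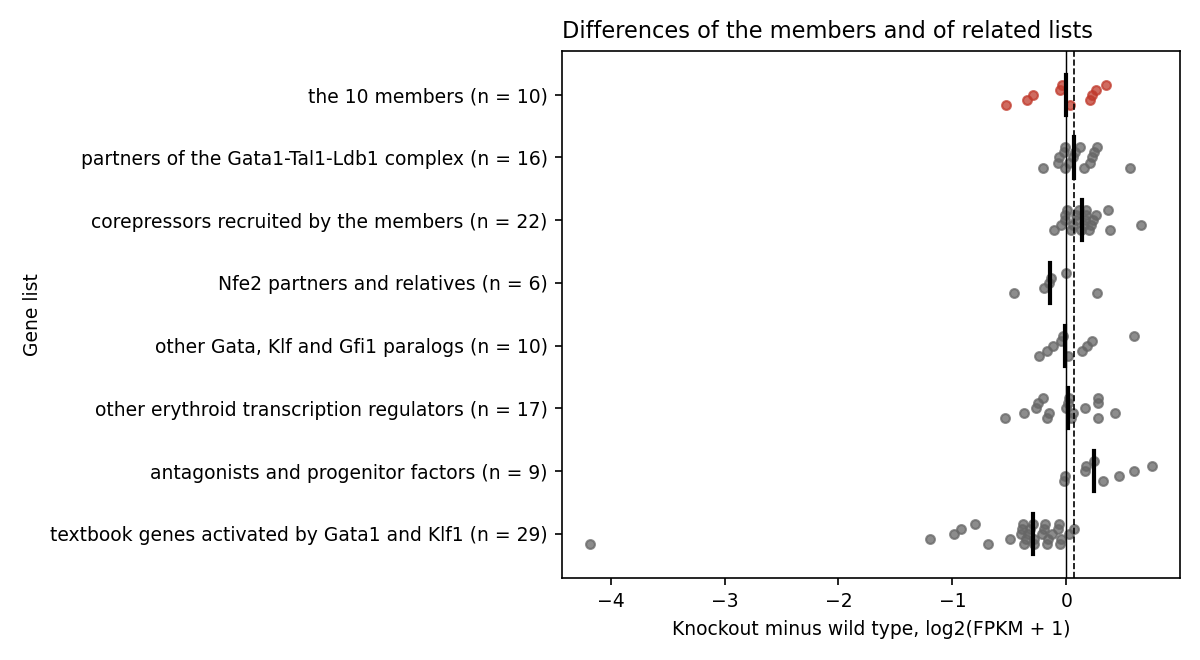
Difference between knockout and wild type on the log2(FPKM + 1) scale for the 10 members (red) and for 7 related lists (grey), 1 point per gene, with the median of each list as a black bar and that of all genes tested as a dashed line. The members spread from −0.53 to 0.35 around a median of −0.001, whereas the median of the activated genes is −0.29 and that of the progenitor factors is 0.24.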

How the data were processed

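Total RNA of DS19 cells, depleted of ribosomal RNA, was sequenced from 2 wild-type and 2 Wdr26 knockout samples, per the labels' protocols, and grouped by the genotype and number in the titles. The deposited table gives 1 value per gene and library without naming a unit. The values were taken as FPKM, since multiplied by transcript length they sum to between 1.02e+09 and 1.04e+09 in each deposited library. TopHat2 and mm10 are named in the submitters' processing notes, while the quantification program is not given in the sources. Rows of Tal1, Zfpm1, Ldb1, Cbfa2t3 and Zbtb7a combine RefSeq with assembled transcripts, per the file's identifiers. Depth was estimated from steps in low values of short genes, with 200 bases taken off each length, and no interval from counts was computed. Coordinates are those of RefSeq GRCm38.p6 (mm10), and exon overlaps those of GENCODE M21.

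The 10670 genes that reached 1 FPKM in 2 or more libraries were compared on log2(FPKM + 1) with limma 3.58.1 in R 4.3.3 (mean-variance trend, no covariates, Benjamini-Hochberg threshold 0.05). Folds of means are ratios of mean FPKM, and intervals are back-transformed from the log scale, which understates changes of low genes. With 2 against 2 libraries no single-gene permutation test can reach the threshold, and none was run. The procedure was tested on simulated data with 200 changed genes in each of 5 runs. It recovered 1.79% of 1.5-fold, 42.7% of 2-fold and 96.1% of 4-fold changes at the threshold. The members and lists were chosen with earlier results of these data known. From other lists the text names genes past the threshold, genes with groups apart and an absolute log2 difference of at least 0.5, and the 2 most abundant. Names beyond this rule (those given with small counts, untested genes, Pprc1 and Gm10612) were chosen after their values were seen. Alternatives were another pseudocount (0.1), no filter, a mean of at least 5 FPKM, median-centring, quantile normalization, 11 globin genes left out, no trend, the library number as a block and each library left out. The block with median-centred values was added after seeing the data. Leaving out a library leaves 1 library in its genotype, so the spread then comes from the other genotype alone. Tables and figures were made with pandas 2.3.3 and matplotlib 3.10.9.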

Additional observations from a re-analysis of the deposited data

How the results depend on the processing

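Of the 130 values of the 10 members under 13 alternatives, 116 kept their direction and their side of the threshold, 5 came to pass it and 9 changed sign. The sign changes were in Gata1, Lmo2 and Zbtb7a, which lie near 0. Gata1 was −0.04 with median-centred values, with or without the block, −0.006 with the globin genes left out, and −0.08 to 0.14 without single libraries. Without single libraries Lmo2 ran from −0.15 to 0.04 and Zbtb7a from −0.15 to 0.08. With libraries left out the count of members passing ran from 0 to 1, the 1 being Cbfa2t3 without knockout library 1. The median difference of the members was −0.078 with median-centred values, with or without the block, and kept within the spread between libraries (0.075) otherwise. The number of members with groups apart was 5 with median-centred values, with or without the block. It was 6 under the other alternatives that kept all 4 libraries. With 1 wild-type library left out it was 7, and with 1 knockout library left out it was 9. A group of 1 library stands apart more easily, and the share of all genes was not computed for these settings.

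Over all genes, 10 passed. There were 0 without the filter (1692 at an unadjusted p under 0.05, limma), 2 above a mean of 5 FPKM, and 3 to 738 with single libraries left out (3 without wild-type library 1, 5 without wild-type library 2, 738 without knockout library 1 and 328 without knockout library 2).

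The labels do not say that library numbers pair the samples. Deviations from the group means correlated at 0.606 across genes between same-numbered libraries. With the number as a replicate block, which leaves 1 residual degree of freedom, 1863 genes and 3 members passed (Cbfa2t3 and Klf1 lower, Ldb1 higher). With median-centred values in the same block 1391 genes and 1 member (Cbfa2t3) passed.

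Of 347 values of 27 other named genes, Wdr26 included, 283 kept direction and call, 42 came to pass, 1 was lost (Wdr26 without the filter, limma adjusted p = 0.0675) and 21 changed sign. Among the others 13 passed with the block (Mta1, Fli1, Gata2, Tcf4, Foxo3, Slc4a1, Tfrc, Ermap, Ahsp, Epb42, Prtn3, Ptprcap and Pf4) and 14 with the block and median-centred values. Klf13 was −0.06 with median-centred values, with or without the block, and under quantile normalization, −0.02 without the globin genes, and −0.21 to 0.24 without single libraries. Under quantile normalization Hba-a1 and Hbb-b1 were 0, at the same rank in every library. Without single libraries Hbb-b1 ran from −0.22 to 0.08, Ctbp1 from −0.15 to 0.13, Myc from −0.69 to 0.66, Nfe2l2 from −0.07 to 0.06, Spi1 from −0.28 to 0.25, Pf4 from −1.01 to 0.31 and Lyl1 from −0.46 to 0.04. Lmo2 had the fewest estimated fragments of the members, about 580 per library, and the effect of depth was not tested.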
